A study of Homo sapiens with 16 samples.

Results

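The genes described are 44 transcripts of the translation initiation machinery and of the proteins that hold its cap-binding subunit in check, the 4E-binding proteins (4E-BPs). They were taken by symbol from a list of EIF genes without the kinases of eIF2. The symbols were matched to the Ensembl identifiers of a count table of 62754 genes, and all 44 were found and passed the filter on low counts. They comprise 3 genes of eIF2, 5 of eIF2B, 13 of eIF3, 11 of eIF4, 2 genes of 4E-BPs, 3 of the eIF1 and eIF1A kind, EIF2A and EIF2D, and 5 genes named for eIF5, eIF5A, eIF5B and eIF6. The study measured RNA in LNCaP, an androgen-responsive human prostate cancer cell line, to ask how loss of p53 and inhibition of the eIF2 kinase GCN2 change gene expression together. The 4 groups had 4 libraries each: p53 KO cells given 5 µM GCN2iB for 48 h, p53 KO cells given vehicle, WT cells given 5 µM GCN2iB for 48 h, and WT cells given vehicle. GCN2iB is a small-molecule inhibitor of GCN2, the vehicle was DMSO, and p53 KO cells were made with CRISPR. The labels say neither whether the knockout is a single clone or a pool nor whether replicates were separate cultures, so each p-value reflects only library-to-library spread, which may be technical.

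Translation starts when eIF2, loaded with GTP and initiator tRNA, joins eIF1, eIF1A, eIF3 and eIF5 on the small ribosomal subunit. The complex eIF4F, made of the cap-binding protein eIF4E, the scaffold eIF4G and the helicase eIF4A, brings them to the capped end of an mRNA. Phosphorylation of the eIF2 alpha subunit by GCN2 during amino acid shortage turns eIF2 into an inhibitor of its own exchange factor, eIF2B. This lowers initiation at most mRNAs and favours a few, such as that of the transcription factor ATF4. A separate brake is set by 4E-BPs, which occupy eIF4E until the kinase complex mTORC1 phosphorylates them. Several of the 44 genes carry an EIF name but act elsewhere: EIF4A3 is the helicase of the exon junction complex, EIF5A helps elongation, and EIF6 keeps the large ribosomal subunit from joining too early.

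Libraries held 17418072 to 39915685 counts. CDKN1A, a direct p53 target used here as a check of genotype, had 38.5 to 51.7 CPM (counts per 1000000 reads, on scaled library totals) in p53 KO GCN2iB libraries and 35.4 to 43.1 CPM in p53 KO vehicle libraries, against 375 to 501 CPM in WT GCN2iB libraries and 247 to 298 CPM in WT vehicle libraries. ATF4 had 279 to 292 CPM under GCN2iB and 457 to 535 CPM under vehicle in p53 KO cells, and 199 to 226 CPM under GCN2iB and 442 to 538 CPM under vehicle in WT cells. The lowest CDKN1A level of the WT GCN2iB group, 375 CPM, was that of its replicate 4, which also stood at -18.3 on the first principal component when the other 3 libraries of its group lay between -33.6 and -31.5. Replicate 4 of the p53 KO GCN2iB group stood at 30.6 on the second component, against 10.9 to 13.9 for the rest of its group. On the same component replicate 1 of the WT vehicle group stood at -35.1, against -18.7 to -10.8 for the rest of its group. Replicate 1 of the p53 KO vehicle group stood at -24.7, against -17.0 to -10.1. Calls that change when any 1 of these libraries is left out are named with their comparison. The 9 luminal prostate markers summed to 5352 to 5825 CPM under GCN2iB and 6063 to 6183 CPM under vehicle in p53 KO cells, and to 5724 to 5965 CPM under GCN2iB and 6502 to 6812 CPM under vehicle in WT cells, so they were lower under GCN2iB without overlap. The 3 endothelial markers summed to 8.84 to 12.9 CPM in p53 KO libraries and 17.6 to 23.0 CPM in WT libraries, and the 4 basal epithelial markers to 3.55 to 4.61 CPM in p53 KO libraries and 2.12 to 2.96 CPM in WT libraries. The 5 stromal markers lay between 16.5 and 26.6 CPM, and immune and blood markers reached at most 0.279 CPM. The part of these shifts in the results was not tested.

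Set per kilobase of annotated exon (RPKM, that is CPM per kilobase, mean of 16 libraries), transcript levels within the machinery spanned a wide range. EIF3I, a WD-repeat subunit of eIF3, was highest at 267 RPKM, followed by EIF4H, a cofactor of the eIF4A helicase, at 242 RPKM, EIF5A at 236 RPKM and EIF1, which guards start codon choice, at 208 RPKM. EIF4EBP1 had rank 5 at 194 RPKM. Its partner EIF4E was at 8.10 RPKM, rank 38 of 44. This distance rests largely on length, as EIF4E has 14.1 kb of annotated exon and EIF4EBP1 has 1.07 kb. Before division by length, EIF4E was at 114 CPM and EIF4EBP1 at 208 CPM. The lowest were EIF5A2, a second eIF5A gene, at 0.839 RPKM and EIF4E3, a cap-binding relative of eIF4E, at 0.203 RPKM. Within eIF2 the gamma subunit EIF2S3 was at 135 RPKM, the beta subunit EIF2S2 at 98.0 RPKM and the alpha subunit EIF2S1 at 48.1 RPKM. The 5 eIF2B genes lay lower, between 7.58 RPKM for EIF2B2 and 26.2 RPKM for EIF2B1. Ranks depend on the length used. The principal transcript is taken here as the longest one tagged as principal in the annotation. With its length alone, EIF4G2 moved to rank 1 and EIF4E2 to rank 20, having been ranks 7 and 32. The rank of EIF4G2 then rests on a length of 1.969 kb in place of 8.655 kb. Whether that transcript is the main one in these cells was not tested. EIF4E had rank 39. Counts for EIF4A1, a main eIF4A helicase, are uncertain, since 48.6% of its exon bases lie in the readthrough gene SENP3-EIF4A1 and other genes on the same strand, and its 13 named pseudogenes hold 304% of its own 4405 reads. EIF3C shares reads with the near-identical EIF3CL, and 41.1% of the exon bases of EIF3L overlap another gene on the same strand.

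**Figure D1:**
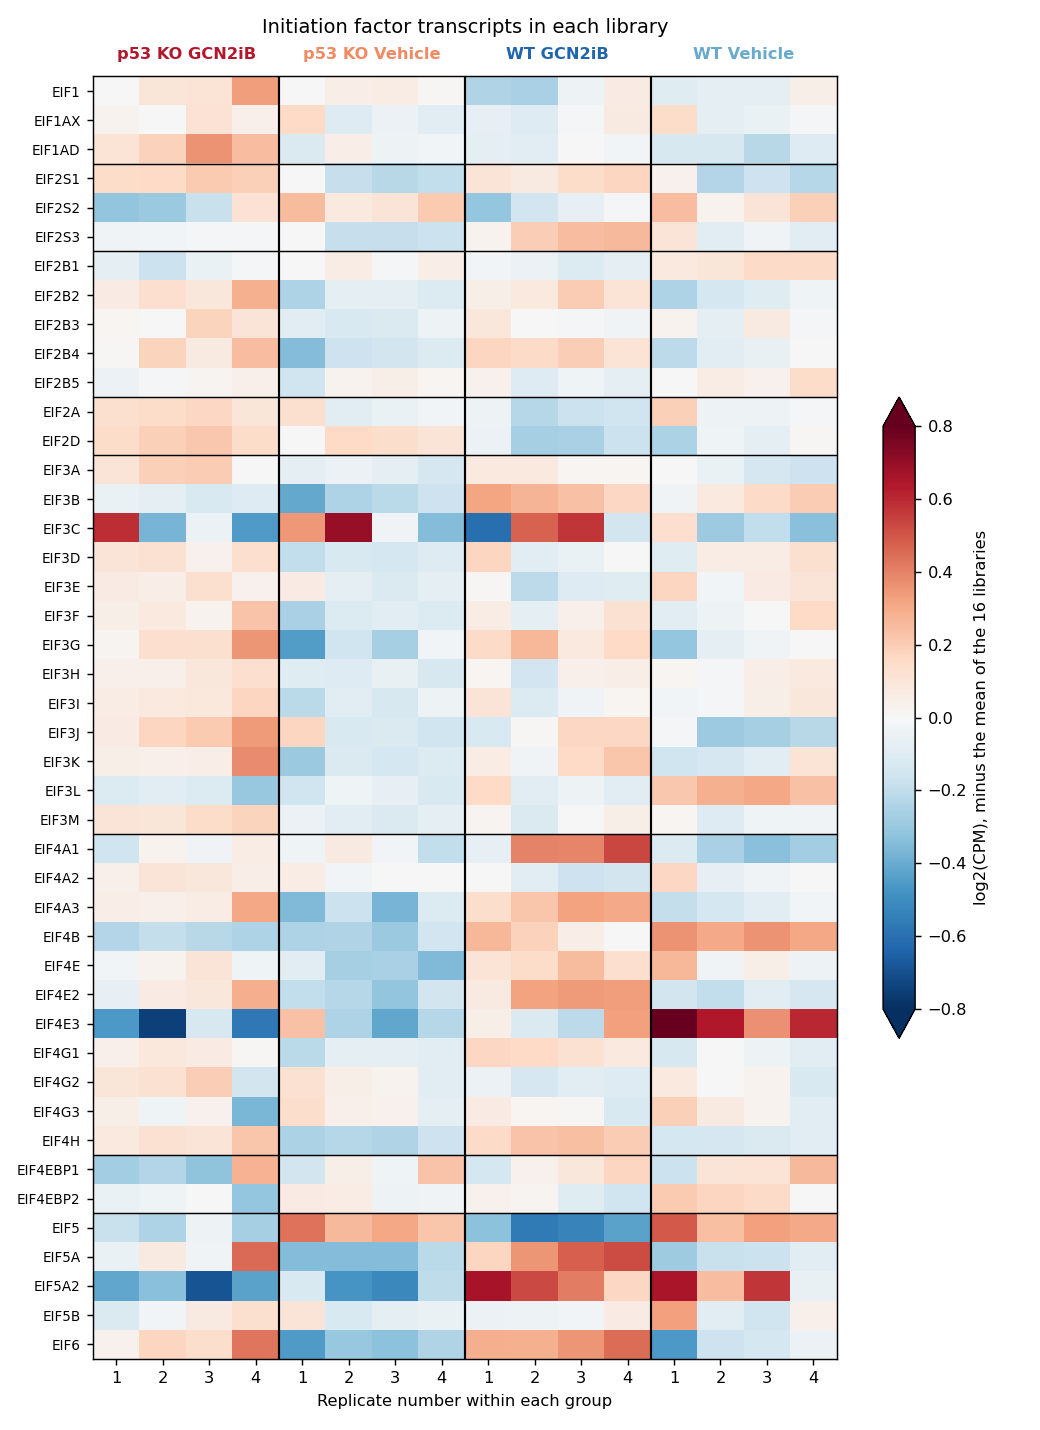
Each row is 1 of the 44 genes and each column 1 of the 16 libraries, by group and replicate number, and colour gives log2 CPM minus the mean of that gene over the 16 libraries. EIF5 is blue in the GCN2iB columns of both genotypes, EIF6, EIF4H and EIF5A are red there, and EIF4B is blue in the p53 KO columns.

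GCN2iB was followed by higher levels of EIF5A, EIF6, EIF4H, EIF4A3, EIF4E2 and the eIF2 alpha subunit gene EIF2S1 in both genotypes. EIF5 and the eIF2 beta subunit gene EIF2S2 were lower in both. In p53 KO cells 22 of the 44 genes were called at an adjusted p under 0.05 (edgeR's quasi-likelihood test, Benjamini-Hochberg over all 18549 genes tested), 20 of them higher and 2 lower. The background was 20.1% of all tested genes, 11.4% higher and 8.71% lower. In WT cells 20 were called, 13 higher and 7 lower, against a background of 25.2%, 11.6% higher and 13.6% lower. The changes were modest in size. The median log2 ratio of the 44 genes was 0.15 in p53 KO cells, beside -0.013 for all tested genes, and 0.017 in WT cells, beside -0.027. The level of every GCN2iB library lay above that of every vehicle library for 21 genes in p53 KO cells (background 11.6%) and for 13 in WT cells (background 11.9%). It lay below for 2 genes in p53 KO cells (background 10%) and for 6 in WT cells (background 14.1%). Of the called genes, 13 were called in both genotypes, 11 higher and 2 lower and none in opposite directions. That is 59.1% of the p53 KO calls and 65% of the WT calls, and over all genes those shares were 64.2% and 51.2%. In p53 KO cells the count of 20 higher depends on the scaling, as 12 of the 44 were called higher with library totals alone. In that setting 1401 of all genes were called higher and 2672 lower, in place of 2119 and 1615. In these bulk libraries a change in the share of cells that carry a transcript and a change in its amount per cell cannot be told apart.

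**Figure D2:**
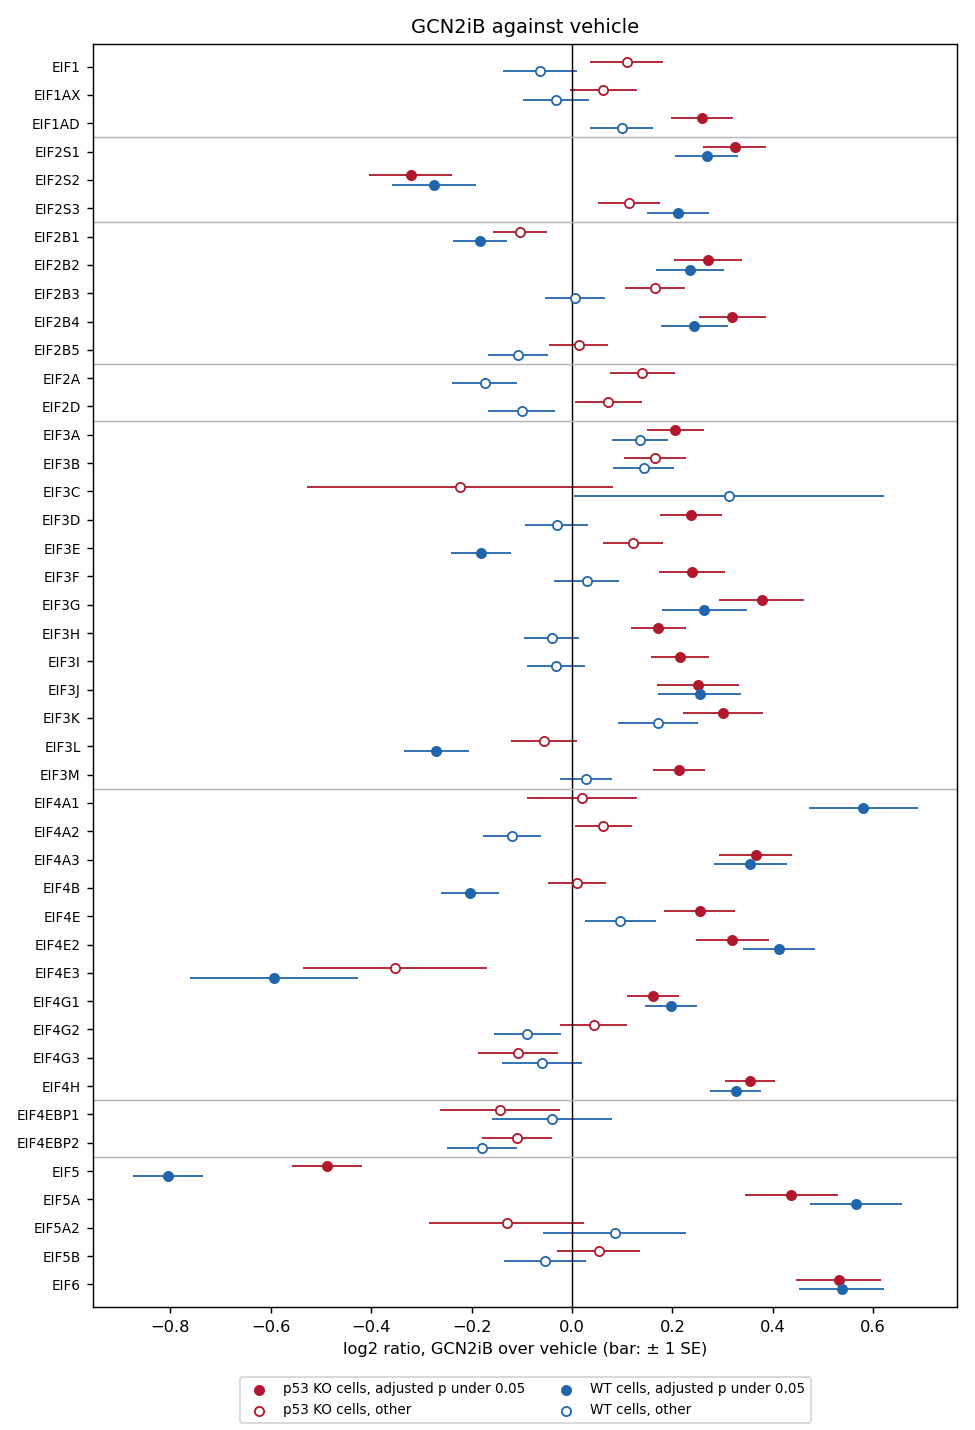
Points give the log2 ratio of GCN2iB over vehicle (x axis, with 1 SE) for each gene in p53 KO cells (red) and WT cells (blue), filled where the adjusted p is under 0.05. The points run from -0.80 for EIF5 to 0.58 for EIF4A1, both in WT cells, and 9 eIF3 genes are filled on the right in p53 KO cells.

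EIF5, the GTPase-activating protein of eIF2, had the smallest adjusted p of the 44 genes in WT cells and fell in both genotypes. It had 177, 169, 195 and 167 CPM in p53 KO GCN2iB libraries and 271, 240.0, 249 and 234 CPM in p53 KO vehicle libraries. WT libraries held 159.9, 135, 138 and 149 CPM under GCN2iB and 282, 237, 252 and 248 CPM under vehicle. In each genotype all 4 GCN2iB libraries lay below all 4 vehicle libraries. EIF5 fell by 0.49 on the log2 scale in p53 KO cells (SE 0.070, adjusted p = 3.18e-05, 1.4-fold) and fell by 0.80 in WT cells (SE 0.071, adjusted p = 3.09e-08, 1.75-fold). The gene lies on chromosome 14 at 103333544 to 103345025 (GRCh38, plus strand). EIF1, which opposes eIF5 at the start codon, was not called in either genotype, with log2 ratios of 0.11 (SE 0.073, adjusted p = 0.325) in p53 KO cells and -0.063 (SE 0.073, adjusted p = 0.575) in WT cells. The per-length ratio of EIF5 to EIF1, a pair picked after the values were seen, was 0.0923 ± 0.0129 under GCN2iB and 0.138 ± 0.0109 under vehicle in p53 KO cells, and 0.0903 ± 0.0124 under GCN2iB and 0.15 ± 0.0153 under vehicle in WT cells (SD, n = 4 each).

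The alpha and beta subunits of eIF2 moved in opposite directions. EIF2S1, the alpha subunit that carries the phosphorylation site of the eIF2 kinases, had 299, 301, 312 and 308 CPM in p53 KO GCN2iB libraries and 270.0, 238, 231 and 235 CPM in p53 KO vehicle libraries. In WT cells it had 289.9, 284, 298 and 304 CPM under GCN2iB and 276, 229.9, 240.3 and 231 CPM under vehicle. Every GCN2iB library was above every vehicle library of its genotype, and replicate 1 was the highest vehicle library in each genotype. EIF2S1 rose in p53 KO cells (log2 ratio 0.32, SE 0.063, adjusted p = 0.000787) and in WT cells (log2 ratio 0.27, SE 0.063, adjusted p = 0.00319). EIF2S2, the beta subunit, which contacts eIF5, had 207, 209.9, 228 and 279 CPM in p53 KO GCN2iB libraries and 307, 273, 277 and 298 CPM in p53 KO vehicle libraries, where replicate 4 under GCN2iB was above 2 vehicle libraries. In WT cells EIF2S2 had 208, 232, 246 and 256 CPM under GCN2iB and 306, 263, 278 and 294 CPM under vehicle, with no overlap. EIF2S2 fell in p53 KO cells (log2 ratio -0.32, SE 0.083, adjusted p = 0.008) and in WT cells (log2 ratio -0.28, SE 0.083, adjusted p = 0.0178). The WT call was lost when WT vehicle replicate 1, WT GCN2iB replicate 1 or WT GCN2iB replicate 2 was left out, at adjusted p-values of 0.0613, 0.0818 and 0.0536. The gamma subunit EIF2S3, which binds GTP and initiator tRNA, had a log2 ratio of 0.11 (SE 0.062, adjusted p = 0.21) in p53 KO cells and rose in WT cells (log2 ratio 0.21, SE 0.062, adjusted p = 0.015). The per-length ratio of EIF2S1 to EIF2S2, picked after the values were seen, was 0.629 ± 0.0743 under GCN2iB and 0.397 ± 0.0193 under vehicle in p53 KO cells, and 0.589 ± 0.0442 under GCN2iB and 0.403 ± 0.0233 under vehicle in WT cells (SD, n = 4 each).

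Of the eIF2B genes, which encode the exchange factor that reloads eIF2 with GTP, EIF2B2 and EIF2B4, the beta and delta regulatory subunits, rose in both genotypes. EIF2B4 had 59.3, 66.5, 61.7 and 69.7 CPM in p53 KO GCN2iB libraries and 46.2, 52.4, 53.2 and 54.4 CPM in p53 KO vehicle libraries (log2 ratio 0.32, SE 0.067, adjusted p = 0.00149). In WT cells it had 66.4, 65.5, 67.4 and 63.4 CPM under GCN2iB and 50.9, 55.4, 56.4 and 58.8 CPM under vehicle (log2 ratio 0.24, SE 0.067, adjusted p = 0.0097). No library of one treatment overlapped the other in either genotype. EIF2B2 rose with log2 ratio 0.27, SE 0.067, adjusted p = 0.0061 in p53 KO cells and log2 ratio 0.23, SE 0.068, adjusted p = 0.0133 in WT cells. The alpha subunit EIF2B1 went the other way in WT cells, where it fell (log2 ratio -0.18, SE 0.054, adjusted p = 0.0143), with -0.10 (SE 0.054, adjusted p = 0.186) in p53 KO cells. Its WT call was lost without replicate 3 or 4 of either WT group (adjusted p 0.0608 to 0.0813). The gamma subunit EIF2B3 was not called, at 0.17 (SE 0.060, adjusted p = 0.0519) in p53 KO cells and 0.007 (SE 0.060, adjusted p = 0.949) in WT cells. EIF2B5, the catalytic epsilon subunit, had 87.5, 89.4, 92 and 93.2 CPM in p53 KO GCN2iB libraries, 81.1, 92.5, 93.5 and 91.7 CPM in p53 KO vehicle libraries, 92.9, 84.1, 88.4 and 85.9 CPM in WT GCN2iB libraries and 90.8, 94.2, 92.8 and 100.4 CPM in WT vehicle libraries. These groups overlapped, and EIF2B5 was called in neither genotype, at 0.013 (SE 0.059, adjusted p = 0.904) in p53 KO cells and -0.11 (SE 0.059, adjusted p = 0.199) in WT cells. EIF2A and EIF2D, which can deliver initiator tRNA without eIF2, were called in neither genotype, with log2 ratios of 0.14 and 0.073 in p53 KO cells and -0.17 and -0.10 in WT cells. EIF2A was called higher in p53 KO cells without p53 KO vehicle replicate 1 (0.19, adjusted p = 0.0486) and lower in WT cells without WT GCN2iB replicate 1 (-0.20, adjusted p = 0.0375).

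Among the 13 subunits of eIF3, the scaffold that holds the other factors on the small ribosomal subunit, 9 rose and none fell in p53 KO cells, and 2 rose and 2 fell in WT cells. Over all tested genes 11.4% rose and 8.71% fell in p53 KO cells, and 11.6% rose and 13.6% fell in WT cells. The 9 were EIF3A, EIF3D, EIF3F, EIF3G, EIF3H, EIF3I, EIF3J, EIF3K and EIF3M, with log2 ratios between 0.17 for EIF3H and 0.38 for EIF3G. EIF3G, an RNA-binding subunit, had 248, 268, 268 and 313 CPM in p53 KO GCN2iB libraries and 179, 219.7, 204 and 242 CPM in p53 KO vehicle libraries (log2 ratio 0.38, SE 0.085, adjusted p = 0.00273). EIF3G also rose in WT cells, where it had 273, 295, 259 and 274 CPM under GCN2iB and 198, 233, 239.9 and 245 CPM under vehicle (log2 ratio 0.26, SE 0.085, adjusted p = 0.0252). All GCN2iB libraries of EIF3G exceeded the vehicle libraries in both genotypes. EIF3M, a PCI-domain subunit of the core, had 241, 240.2, 249 and 254 CPM in p53 KO GCN2iB libraries and 218, 212, 207 and 213 CPM in p53 KO vehicle libraries, again without overlap (log2 ratio 0.21, SE 0.052, adjusted p = 0.00548). Its WT libraries held 228, 208, 225 and 232 CPM under GCN2iB and 227, 209, 219 and 220.4 CPM under vehicle and overlapped (log2 ratio 0.028, SE 0.052, adjusted p = 0.746). EIF3D, a subunit with cap-binding activity of its own, had log2 ratio 0.24, SE 0.062, adjusted p = 0.00847 in p53 KO cells and log2 ratio -0.031, SE 0.062, adjusted p = 0.763 in WT cells. EIF3K, a small peripheral subunit, had log2 ratio 0.30, SE 0.080, adjusted p = 0.00954 and its partner EIF3L, which forms a pair with it, log2 ratio -0.055, SE 0.065, adjusted p = 0.601 in p53 KO cells. EIF3L fell in WT cells (log2 ratio -0.27, SE 0.065, adjusted p = 0.00386). EIF3I rose in p53 KO cells (log2 ratio 0.22, SE 0.058, adjusted p = 0.00986), as did EIF3F, an MPN-domain subunit (log2 ratio 0.24, SE 0.065, adjusted p = 0.0113), and EIF3A, the largest subunit (log2 ratio 0.21, SE 0.056, adjusted p = 0.0114). EIF3J, a loosely attached subunit at the mRNA entry channel, rose in both genotypes, with log2 ratio 0.25, SE 0.082, adjusted p = 0.0334 in p53 KO cells and log2 ratio 0.25, SE 0.083, adjusted p = 0.0266 in WT cells. EIF3E, a PCI-domain subunit, fell in WT cells (log2 ratio -0.18, SE 0.060, adjusted p = 0.0286) and had 0.12 (SE 0.060, adjusted p = 0.159) in p53 KO cells. EIF3B, the RNA-binding scaffold subunit, was called in neither genotype (0.17 in p53 KO cells and 0.14 in WT cells), and EIF3C had an SE of 0.31 in each genotype. The p53 KO count is sensitive to scaling, with 3 of 13 subunits called higher under library totals, and it ranged from 7 to 9 when 1 library was left out (7 without p53 KO GCN2iB replicate 3 or 4 or p53 KO vehicle replicate 2). The WT counts ranged from 1 to 4 higher and from 1 to 2 lower: 1 rose without vehicle replicate 2 or 3 or GCN2iB replicate 2, 3 or 4, and 4 rose without vehicle replicate 4, where EIF3B (adjusted p = 0.0388) and EIF3K (0.0265) were added. EIF3A was called higher in WT cells without vehicle replicate 1 (0.0366), and EIF3B in p53 KO cells without vehicle replicate 4 (0.0411). Of single calls, that of EIF3J in p53 KO cells held only without replicate 1 of either group (adjusted p 0.0554 to 0.0961 in the other 6 fits), and that of EIF3H was lost without vehicle replicate 2 or 4 or GCN2iB replicate 3 or 4 (0.0620 to 0.0703). In WT cells the EIF3E call held only without vehicle replicate 2 or GCN2iB replicate 1 (0.0812 to 0.151 in the other 6 fits). The EIF3J call was lost without vehicle replicate 2 or 3 or GCN2iB replicate 3 or 4 (0.0552 to 0.0662), and that of EIF3G without vehicle replicate 1 or GCN2iB replicate 2 (0.0717 to 0.0759).

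Within the eIF4 group of 11 genes, 5 rose and none fell in p53 KO cells, and 5 rose and 2 fell in WT cells. The backgrounds were 11.4% higher and 8.71% lower in p53 KO cells and 11.6% higher and 13.6% lower in WT cells. EIF4H had 808, 834, 824 and 895 CPM in p53 KO GCN2iB libraries and 643, 655, 647 and 683 CPM in p53 KO vehicle libraries. In WT cells EIF4H had 852, 898, 905 and 884 CPM under GCN2iB and 696, 699, 707 and 721 CPM under vehicle. Treated and vehicle libraries were well separated in each genotype, and EIF4H rose in p53 KO cells (log2 ratio 0.35, SE 0.051, adjusted p = 2.81e-05) and WT cells (log2 ratio 0.33, SE 0.051, adjusted p = 6.14e-05). EIF4A3 rose with log2 ratio 0.37, SE 0.072, adjusted p = 0.000921 in p53 KO cells and log2 ratio 0.36, SE 0.072, adjusted p = 0.000955 in WT cells. EIF4E2, a cap-binding protein that does not recruit eIF4G and is known as a repressor, had 125, 137, 139 and 159.8 CPM in p53 KO GCN2iB libraries and 114, 112, 105 and 118 CPM in p53 KO vehicle libraries (log2 ratio 0.32, SE 0.072, adjusted p = 0.00293). Its WT libraries held 137, 163, 165 and 165 CPM under GCN2iB and 118, 114, 123 and 119 CPM under vehicle (log2 ratio 0.41, SE 0.072, adjusted p = 0.000227). Again no GCN2iB library fell within the vehicle range of its genotype. EIF4E itself had 111, 115, 122 and 110.3 CPM in p53 KO GCN2iB libraries and 107, 94.2, 94.4 and 88.6 CPM in p53 KO vehicle libraries, with the GCN2iB libraries above, and it rose (log2 ratio 0.25, SE 0.070, adjusted p = 0.0127). In WT cells EIF4E had 122, 125, 135 and 124 CPM under GCN2iB and 136, 111, 117 and 110.2 CPM under vehicle and was not called (log2 ratio 0.10, SE 0.070, adjusted p = 0.342), the highest vehicle library being replicate 1. Pseudogenes of EIF4E hold 13.2% as many reads as the gene. The scaffold EIF4G1 rose a little in both genotypes (log2 ratio 0.16, SE 0.052, adjusted p = 0.0302 in p53 KO cells and log2 ratio 0.20, SE 0.052, adjusted p = 0.00775 in WT cells), but its p53 KO call was lost in 6 of the 8 fits that left out 1 library of these groups (adjusted p 0.0550 to 0.115; it held without p53 KO vehicle replicate 4 or p53 KO GCN2iB replicate 4). EIF4G2, a scaffold without an eIF4E site, had 0.043 in p53 KO cells and -0.089 in WT cells, and EIF4G3 had -0.11 in p53 KO cells and -0.060 in WT cells, none of them called. EIF4B, which like EIF4H stimulates the helicase, fell in WT cells (log2 ratio -0.20, SE 0.058, adjusted p = 0.0125) and had 0.011 (SE 0.058, adjusted p = 0.923) in p53 KO cells. Its WT call was lost without WT GCN2iB replicate 4 (-0.15, adjusted p = 0.0971), without WT GCN2iB replicate 3 (0.0833) and without WT vehicle replicate 3 (0.0630). EIF4E3 fell in WT cells (log2 ratio -0.59, SE 0.17, adjusted p = 0.0115), where it had 2.14, 1.92, 1.8 and 2.6 CPM under GCN2iB and 3.9, 3.24, 2.68 and 3.15 CPM under vehicle, and had -0.35 (SE 0.18, adjusted p = 0.188) in p53 KO cells. Its WT call was lost without WT GCN2iB replicate 3 (adjusted p = 0.0507). EIF4A2, the other cytoplasmic helicase, was called in neither genotype, at 0.062 in p53 KO cells and -0.12 in WT cells. EIF4A1, on its uncertain counts, had 0.020 (SE 0.11, adjusted p = 0.923) in p53 KO cells and rose in WT cells (log2 ratio 0.58, SE 0.11, adjusted p = 0.000452). Summed with the readthrough gene and its pseudogenes, an alternative added after the data were seen, it had log2 ratios of 0.39 (adjusted p = 7.86e-05) in p53 KO cells and 0.26 (adjusted p = 0.00259) in WT cells.

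**Figure D3:**
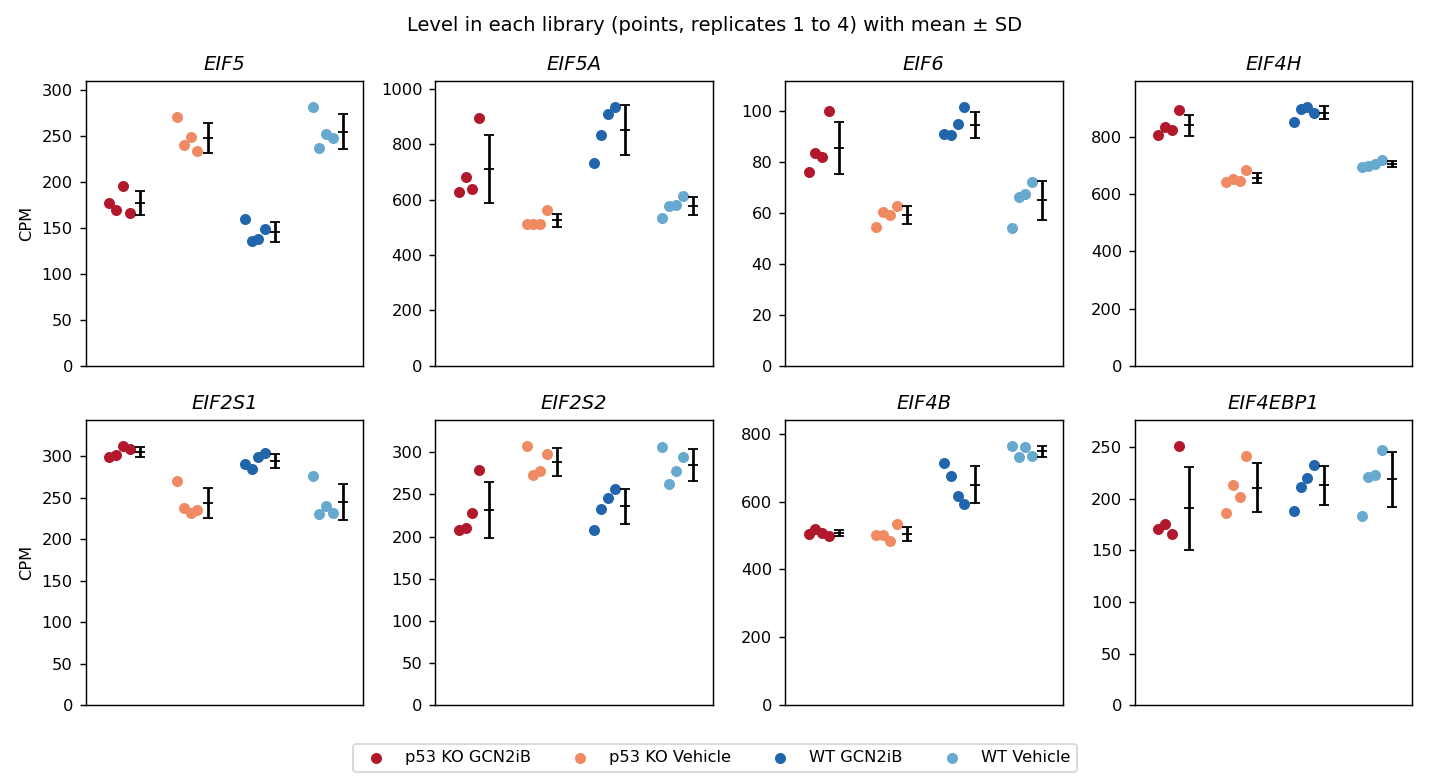
CPM of 8 genes in each library (points) with the mean ± SD of each group of 4 (black), p53 KO GCN2iB, p53 KO vehicle, WT GCN2iB and WT vehicle from left to right in each panel. GCN2iB points lie apart from the vehicle points of the same genotype for EIF5, EIF5A, EIF6, EIF4H and EIF2S1, the EIF4B points of p53 KO cells lie below those of WT cells, and 1 p53 KO GCN2iB point of EIF4EBP1, at 251 CPM, stands above the other 3.

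Neither 4E-BP gene was called in the fit of all libraries with TMM scaling and no replicate block. Each was called lower in 1 genotype under another setting. EIF4EBP1, a known target gene of ATF4, had 171, 176, 166 and 251 CPM in p53 KO GCN2iB libraries and 186, 213, 202 and 242 CPM in p53 KO vehicle libraries. WT libraries had 188, 211, 220.2 and 233 CPM under GCN2iB and 183, 222, 223 and 247 CPM under vehicle. In p53 KO cells the first 3 GCN2iB libraries lay below all vehicle libraries and the fourth above all of them, while the WT groups overlapped throughout. The tests gave log2 ratio -0.14, SE 0.12, adjusted p = 0.442 in p53 KO cells and log2 ratio -0.040, SE 0.12, adjusted p = 0.843 in WT cells. Without p53 KO GCN2iB replicate 4, EIF4EBP1 fell by 0.30 on the log2 scale in p53 KO cells (adjusted p = 0.0194), so that 1 library decides the call. ATF4 fell in both genotypes (log2 ratio -0.83, SE 0.064, adjusted p = 6.28e-09 in p53 KO cells and log2 ratio -1.22, SE 0.065, adjusted p = 5.61e-12 in WT cells). EIF4EBP2, the second 4E-BP, had 189.7, 192, 197 and 159 CPM in p53 KO GCN2iB libraries, 206, 205, 191 and 193 CPM in p53 KO vehicle libraries, 201, 199.7, 184 and 176 CPM in WT GCN2iB libraries and 227, 221, 218 and 196 CPM in WT vehicle libraries. Its groups overlapped, with log2 ratio -0.11, SE 0.069, adjusted p = 0.287 in p53 KO cells and log2 ratio -0.18, SE 0.069, adjusted p = 0.0595 in WT cells. EIF4EBP2 was called lower in WT cells without WT vehicle replicate 4 (-0.21, adjusted p = 0.0434) and with library totals alone (-0.21, adjusted p = 0.0430). A fit of all libraries with replicate numbers as a block also called it lower there (-0.18, adjusted p = 0.00562). The ratio of EIF4EBP2 to EIF4E per kilobase of annotated exon was 3.11 ± 0.229 under GCN2iB and 4.02 ± 0.239 under vehicle in p53 KO cells. In WT cells it was 2.92 ± 0.261 under GCN2iB and 3.54 ± 0.261 under vehicle (SD, n = 4 each). The libraries of the 2 treatments did not overlap in this ratio in either genotype, but the gap was narrow in WT cells. There the highest GCN2iB library was at 3.19 and the lowest vehicle library at 3.24. In p53 KO cells these were at 3.30 and 3.73. For EIF4EBP1 the ratio was 21.9 ± 5.35 under GCN2iB and 29.1 ± 5.34 under vehicle in p53 KO cells, and 22 ± 1.87 under GCN2iB and 24.6 ± 4.95 under vehicle in WT cells, with overlap in both. The size of these ratios depends on the length used. With the principal transcript alone, mean EIF4EBP2 ratios under GCN2iB and vehicle were 2.55 and 3.29 in p53 KO cells and 2.39 and 2.90 in WT cells. Those of EIF4EBP1 were 18.9 and 25.1 in p53 KO cells and 19.0 and 21.2 in WT cells. These ratios are of RNA, and neither protein amounts nor phosphorylation were measured.

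**Figure D4:**
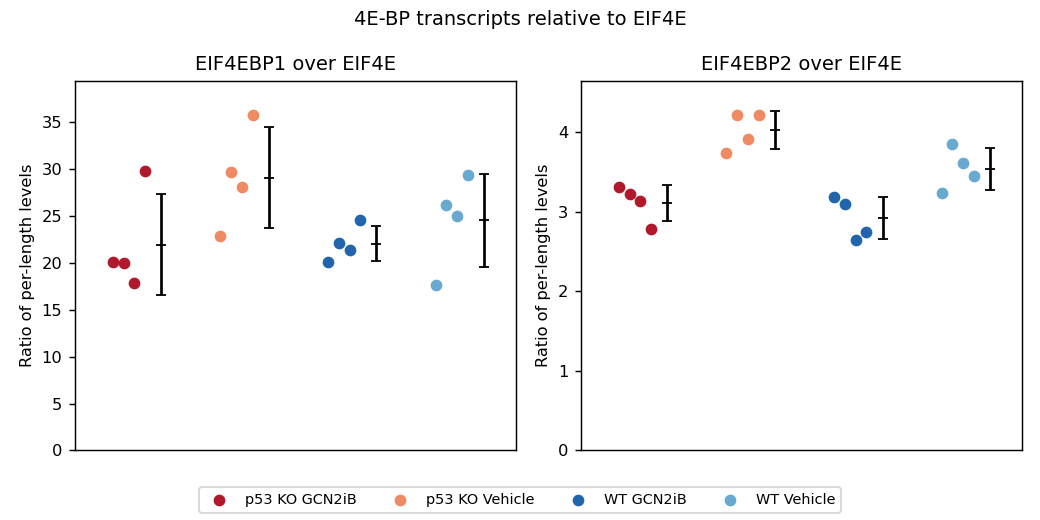
Ratio of the per-length level of EIF4EBP1 (left) and EIF4EBP2 (right) to that of EIF4E in each library (points), with the mean ± SD of 4 libraries (black). The EIF4EBP2 ratio of the GCN2iB libraries lies below that of the vehicle libraries in each genotype, narrowly in WT cells, and the EIF4EBP1 ratios overlap.

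Of the remaining genes, EIF5A and EIF6 rose in both genotypes. EIF5A, the only known carrier of hypusine together with EIF5A2, had 627, 683, 638 and 892 CPM in p53 KO GCN2iB libraries and 513, 513, 511 and 561 CPM in p53 KO vehicle libraries (log2 ratio 0.44, SE 0.092, adjusted p = 0.00167). WT libraries held 732, 832, 908 and 934 CPM under GCN2iB and 533, 575, 579 and 614 CPM under vehicle (log2 ratio 0.57, SE 0.092, adjusted p = 0.00012). Every treated library was above every vehicle library, and replicate 4 was the highest of each treated group. EIF6 had 76.3, 83.8, 82 and 100.1 CPM in p53 KO GCN2iB libraries and 54.5, 60.3, 59.2 and 62.9 CPM in p53 KO vehicle libraries (log2 ratio 0.53, SE 0.085, adjusted p = 0.000103). In WT cells EIF6 had 90.9, 90.6, 94.9 and 102 CPM under GCN2iB and 54.1, 66.4, 67.5 and 72.1 CPM under vehicle (log2 ratio 0.54, SE 0.084, adjusted p = 7.31e-05), again without overlap. Without replicate 4 of both GCN2iB groups EIF5A and EIF6 were still called higher in both genotypes. EIF1AD, a protein with an eIF1A-like domain, rose in p53 KO cells (log2 ratio 0.26, SE 0.062, adjusted p = 0.00475) and had 0.10 (SE 0.063, adjusted p = 0.265) in WT cells. EIF1AX, the scanning factor eIF1A, EIF5A2 and EIF5B, the GTPase that joins the ribosomal subunits, were called in neither genotype, with log2 ratios of 0.063, -0.13 and 0.053 in p53 KO cells and -0.031, 0.085 and -0.054 in WT cells.

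The comparison of genotypes under vehicle asks what loss of p53 changes without the inhibitor. Here 8 of the 44 genes were called, 1 higher and 7 lower, with 21.7% of all tested genes called, 9.63% higher and 12.1% lower. EIF4B, EIF3B, EIF3L, EIF3D, EIF5A2, EIF4E3 and EIF4E were lower in p53 KO cells and EIF2D was higher. The median log2 ratio of the 44 genes was -0.087, beside 0.0059 for all tested genes. All 4 p53 KO libraries lay below all 4 WT libraries for 12 genes and above them for none (backgrounds 12.2% and 10.5%). With library totals alone, 2467 of all genes were called higher and 1593 lower in place of 1787 and 2238, and 6 of the 44 were still called lower.

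EIF4B had 500.4, 502, 483 and 533 CPM in p53 KO vehicle libraries and 763, 731, 761 and 735 CPM in WT vehicle libraries, so the genotypes were well apart. It fell with log2 ratio -0.57, SE 0.058, adjusted p = 1.26e-07, 1.48-fold. EIF3B had 353, 396, 404 and 418 CPM in p53 KO libraries and 459, 495, 520.4 and 539 CPM in WT libraries and fell with log2 ratio -0.36, SE 0.061, adjusted p = 0.000136. EIF3L fell with log2 ratio -0.35, SE 0.065, adjusted p = 0.000293. EIF3D fell with log2 ratio -0.18, SE 0.062, adjusted p = 0.0405, a call that was lost in 6 of the 8 fits without 1 library of these groups (adjusted p 0.0669 to 0.123) and held only without WT vehicle replicate 1 or p53 KO vehicle replicate 4. The scarce EIF5A2 had 4.11, 3.23, 3.12 and 3.88 CPM in p53 KO libraries and 7.04, 5.3, 6.63 and 4.28 CPM in WT libraries (log2 ratio -0.68, SE 0.15, adjusted p = 0.0015). EIF4E3 had 2.44, 1.75, 1.56 and 1.77 CPM in p53 KO libraries and 3.9, 3.24, 2.68 and 3.15 CPM in WT libraries (log2 ratio -0.77, SE 0.17, adjusted p = 0.00168). Both were lower in every p53 KO library than in any WT library. EIF4E fell with log2 ratio -0.30, SE 0.070, adjusted p = 0.00293. The 34 tested genes within 5 Mb of EIF4E on chromosome 4 had a median log2 ratio of -0.15, and 76.5% of them were below 0. Their part in the EIF4E result was not tested. Within 5 Mb the neighbours of EIF2B4 and EIF5B, which were not called, had medians of -0.16 and -0.15. Those of EIF4B and EIF3B, which were called lower, had medians of -0.039 and -0.045. EIF2D rose with log2 ratio 0.18, SE 0.066, adjusted p = 0.0496. The 86 tested genes within 5 Mb of it on chromosome 1 had a median of 0.16, and their part was not tested either. The EIF2D call held only without WT vehicle replicate 4 or p53 KO vehicle replicate 1, with adjusted p-values of 0.0796 to 0.183 in the other 6 fits. EIF2S1, EIF2B5, EIF4EBP1 and EIF4EBP2 were not called, with log2 ratios of -0.003 (SE 0.063, adjusted p = 0.982), -0.077 (SE 0.059, adjusted p = 0.397), -0.055 (SE 0.12, adjusted p = 0.8) and -0.12 (SE 0.069, adjusted p = 0.247). The 32 others that were not called lay between -0.15 for EIF3F and 0.39 for EIF3C. Some of them were called lower when 1 library was left out: EIF3F, EIF3I and EIF6 without WT vehicle replicate 1 (adjusted p 0.0411, 0.0450 and 0.0401), EIF3E without p53 KO vehicle replicate 1 (0.0405) and EIF3I without p53 KO vehicle replicate 4 (0.0452).

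Under GCN2iB 14 genes were called between the genotypes, 7 higher and 7 lower in p53 KO cells, with 23.9% of all tested genes called, 12.7% higher and 11.2% lower. The lower ones were EIF4B, EIF5A2, EIF3B, EIF2S3, EIF4A1, EIF4E3 and EIF5A, and the higher ones EIF2D, EIF2A, EIF1AD, EIF5, EIF1, EIF4A2 and EIF3E. The median log2 ratio was 0.012, beside 0.025 for all tested genes. The 5 genes EIF2D, EIF3B, EIF4B, EIF4E3 and EIF5A2 were called in the same direction under both treatments, which is 35.7% of the calls under GCN2iB and 62.5% of those under vehicle. Over all genes those shares were 57.1% and 63%, so the share under vehicle was near the background and the share under GCN2iB below it. Without WT GCN2iB replicate 4, which stood apart on the first principal component, 9 genes were called. Over all 18808 genes tested in that fit 1869 were called higher and 2134 lower, in place of 2356 and 2085. EIF3E, EIF4A1, EIF4A2, EIF4E3 and EIF5A lost their calls, at adjusted p-values between 0.0570 and 0.146. Without p53 KO GCN2iB replicate 4, which stood apart on the second component, 17 genes were called. Over all 18770 genes tested in that fit 2459 were called higher and 2398 lower. EIF4E2 (-0.24, adjusted p = 0.00954), EIF4A3 (-0.20, adjusted p = 0.0300), EIF6 (-0.23, adjusted p = 0.0299) and EIF4EBP1 were then called lower and EIF4G2 higher (0.23, adjusted p = 0.00451), while EIF1 and EIF4E3 lost their calls. EIF4E2 was also called lower without WT GCN2iB replicate 1 (-0.25, adjusted p = 0.0116).

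**Figure D5:**
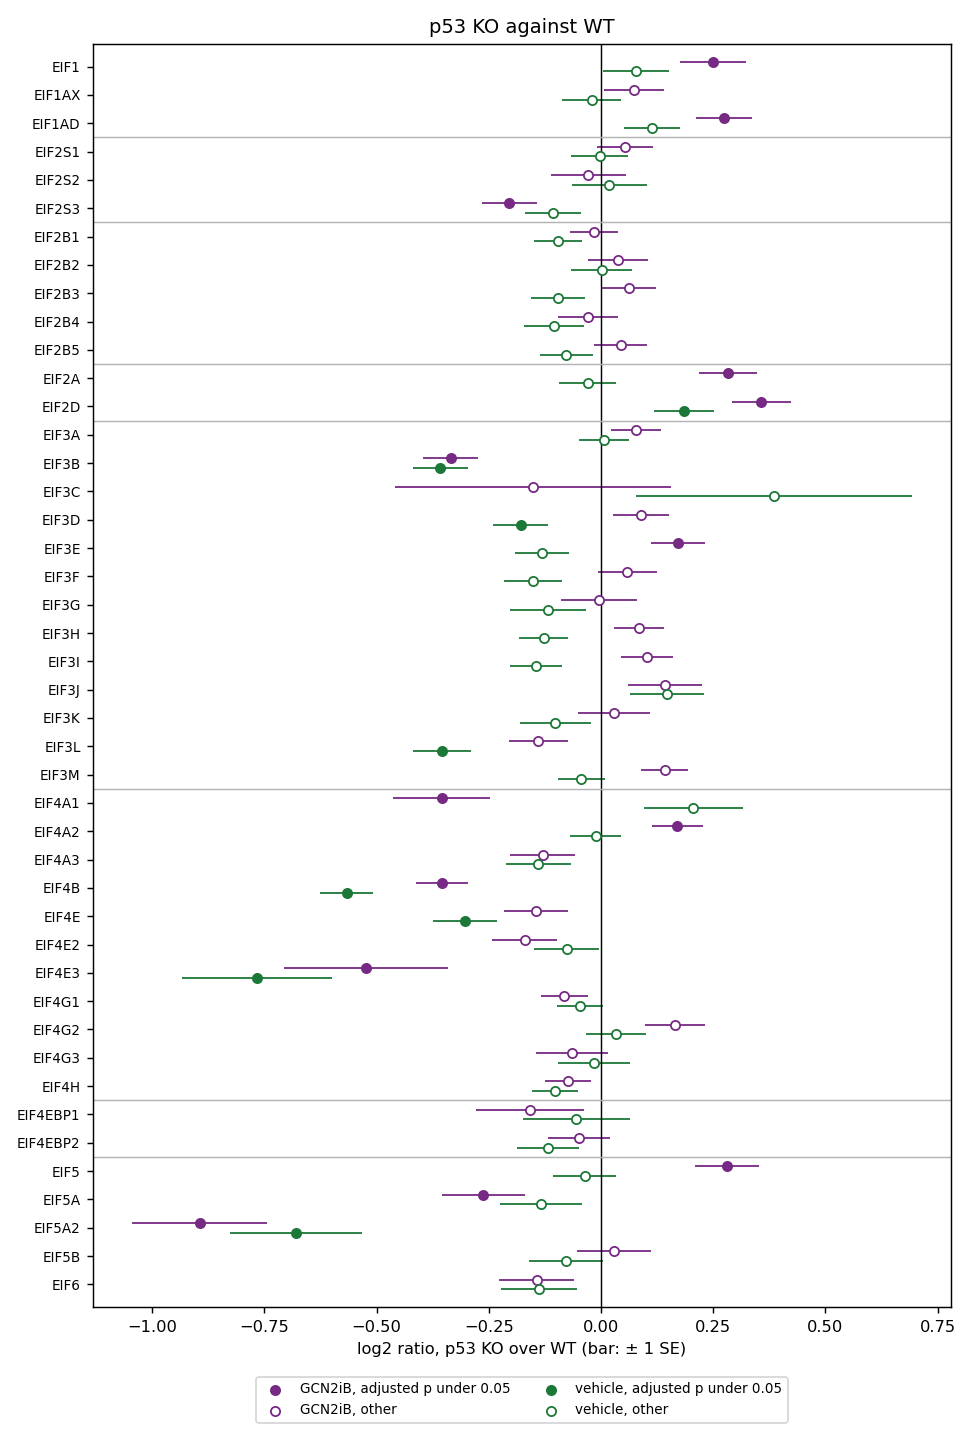
Points give the log2 ratio of p53 KO over WT (x axis, with 1 SE) for each gene under GCN2iB (purple) and under vehicle (green), filled where the adjusted p is under 0.05. EIF4B, EIF3B, EIF5A2 and EIF4E3 are filled on the left and EIF2D on the right under both treatments.

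EIF4B had 505, 520.1, 509 and 499 CPM in p53 KO GCN2iB libraries and 713, 675, 616 and 594 CPM in WT GCN2iB libraries (log2 ratio -0.35, SE 0.058, adjusted p = 8.7e-05), and the p53 KO values lay close together. EIF5A2 had 3.35, 3.55, 2.76 and 3.32 CPM in p53 KO GCN2iB libraries and 7.05, 6.45, 5.94 and 5.02 CPM in WT GCN2iB libraries (log2 ratio -0.89, SE 0.15, adjusted p = 0.000113), with a clear gap between the groups. EIF3B fell with log2 ratio -0.34, SE 0.061, adjusted p = 0.0003, and EIF2S3 with log2 ratio -0.20, SE 0.062, adjusted p = 0.0188. EIF2D had 61.2, 63.3, 64.2 and 61.2 CPM in p53 KO GCN2iB libraries and 53.6, 45.9, 46.2 and 49.1 CPM in WT GCN2iB libraries (log2 ratio 0.36, SE 0.067, adjusted p = 0.000377), and its neighbours within 5 Mb had a median of 0.21. EIF2A had 115, 116, 117 and 112 CPM in p53 KO GCN2iB libraries and 102, 89.5, 93 and 93.9 CPM in WT GCN2iB libraries (log2 ratio 0.28, SE 0.065, adjusted p = 0.00243), and its 34 neighbours had a median of 0.18 with 35.3% called higher. All p53 KO libraries of both genes exceeded all WT libraries. The part of the neighbouring genes was not tested, and neighbours of EIF5A2, which fell, had a median of 0.16. EIF1AD rose with log2 ratio 0.27, SE 0.062, adjusted p = 0.00246, EIF5 with log2 ratio 0.28, SE 0.070, adjusted p = 0.00516 and EIF1 with log2 ratio 0.25, SE 0.073, adjusted p = 0.0153. EIF4A2 (log2 ratio 0.17, SE 0.057, adjusted p = 0.0328) and EIF3E (log2 ratio 0.17, SE 0.060, adjusted p = 0.0388) were higher as well. EIF4E3 (log2 ratio -0.52, SE 0.18, adjusted p = 0.0406) and EIF5A (log2 ratio -0.26, SE 0.092, adjusted p = 0.0409) were lower. EIF4A1 was lower (log2 ratio -0.36, SE 0.11, adjusted p = 0.019), but with its shared reads summed the log2 ratio was 0.014 (adjusted p = 0.892). EIF2S1, EIF2B5, EIF4E and EIF4EBP2 were not called, with log2 ratios of 0.053 (SE 0.063, adjusted p = 0.587), 0.044 (SE 0.059, adjusted p = 0.641), -0.15 (SE 0.070, adjusted p = 0.143) and -0.048 (SE 0.069, adjusted p = 0.661). EIF4EBP1 had -0.16 (SE 0.12, adjusted p = 0.373) and was called lower without p53 KO GCN2iB replicate 4 (-0.32, adjusted p = 0.00933). A fit with replicate numbers as a block also called EIF4EBP1 lower (-0.17, adjusted p = 0.0327). The calls of EIF3E and EIF4A2 held only without WT GCN2iB replicate 1 or p53 KO GCN2iB replicate 4, with adjusted p-values of 0.0687 to 0.225 and 0.0862 to 0.179 in the other fits. That of EIF4E3 was lost without WT replicate 1 or 4 or p53 KO replicate 1, 2 or 4 (0.0560 to 0.132), and that of EIF5A without WT replicate 3 or 4 or p53 KO replicate 1, 2 or 3 (0.0788 to 0.103). The EIF1 call was lost without WT replicate 1 or 2 or p53 KO replicate 4 (0.0524 to 0.105).

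Whether the GCN2iB response itself differed between genotypes was tested as an interaction. None of the 44 genes was called by edgeR's quasi-likelihood test, against 0.00539% of all tested genes, and 12 of the 44 had an unadjusted p under 0.05 (background 9.46%). The DESeq2 and limma voom fits also called none of them. Without WT GCN2iB replicate 1, EIF4A1 was called (-0.69, adjusted p = 0.0334), and a fit with replicate numbers as a block called EIF2A and EIF3E. The 3 genes with the smallest p were EIF4A1 (log2 ratio -0.56, SE 0.15, adjusted p = 0.324), EIF3E (log2 ratio 0.30, SE 0.084, adjusted p = 0.324) and EIF2A (log2 ratio 0.31, SE 0.091, adjusted p = 0.324), where a positive value means a higher log2 ratio in p53 KO cells than in WT cells. EIF4A1 rests on the uncertain counts described above, and with shared reads summed its difference was 0.12 (adjusted p = 0.684). EIF5 had a difference of 0.32 (SE 0.10, adjusted p = 0.342), EIF2S1 of 0.056 (SE 0.089, adjusted p = 0.889), EIF2B5 of 0.12 (SE 0.084, adjusted p = 0.686), EIF4E of 0.16 (SE 0.10, adjusted p = 0.655), EIF4EBP1 of -0.10 (SE 0.17, adjusted p = 0.893) and EIF4EBP2 of 0.070 (SE 0.10, adjusted p = 0.873). The 13 eIF3 genes had a median difference of 0.19, beside 0.023 for all tested genes, and 11 of them were above 0. So were 32 of all 44 genes (72.7%) and 54.8% of all tested genes. No eIF3 gene was called in the fit of all libraries without a replicate block. The 9 subunits that rose in p53 KO cells and the 2 in WT cells are therefore not shown to differ in response. The one gene called over the whole table was SESN2, which encodes a leucine-sensing inhibitor of mTORC1 signalling, with log2 ratio -0.74, SE 0.10, adjusted p = 0.00142.

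Genes next to the initiation factors in the pathway were read from lists that hold none of the 44. The background was 11.4% higher and 8.71% lower calls in p53 KO cells and 11.6% higher and 13.6% lower in WT cells. All 6 reference genes of the amino acid response fell in both genotypes, among them CHAC1, a glutathione-degrading enzyme (log2 ratio -2.78, SE 0.13, adjusted p = 1.06e-12 in p53 KO cells and log2 ratio -3.25, SE 0.14, adjusted p = 7.61e-14 in WT cells), and SLC7A11, the cystine transporter (log2 ratio -1.30, SE 0.10, adjusted p = 1.76e-08 in p53 KO cells and log2 ratio -1.85, SE 0.11, adjusted p = 7.02e-11 in WT cells). Of 25 other regulators of initiation, 7 rose and 3 fell in p53 KO cells and 5 rose and 8 fell in WT cells. EIF1B, a second eIF1 gene, rose in both (log2 ratio 0.52, SE 0.070, adjusted p = 1.58e-05 in p53 KO cells and log2 ratio 0.51, SE 0.070, adjusted p = 1.58e-05 in WT cells). In p53 KO cells CDC123, an assembly factor of eIF2, rose (log2 ratio 0.32, SE 0.062, adjusted p = 0.000623) and PDCD4, an inhibitor of eIF4A, fell (log2 ratio -0.34, SE 0.065, adjusted p = 0.000673). In WT cells PPP1R15B, which directs a phosphatase to eIF2, fell (log2 ratio -0.38, SE 0.068, adjusted p = 0.000268), and PAIP2, which competes for the poly(A)-binding protein, rose (log2 ratio 0.49, SE 0.090, adjusted p = 0.000378). Of 14 genes that act on eIF4E through mTORC1 or the MNK kinases, 1 rose and 2 fell in p53 KO cells and 3 fell in WT cells. SESN2 fell (log2 ratio -1.13, SE 0.069, adjusted p = 1.32e-10 in p53 KO cells and log2 ratio -0.39, SE 0.067, adjusted p = 0.000194 in WT cells), as did DDIT4, another stress-induced inhibitor of mTORC1 (log2 ratio -0.87, SE 0.10, adjusted p = 2.11e-06 in p53 KO cells and log2 ratio -0.41, SE 0.10, adjusted p = 0.00362 in WT cells). Of 19 tested elongation and termination factors, 5 rose and 1 fell in p53 KO cells and 2 rose and 5 fell in WT cells. EEF1D, an exchange subunit of eEF1, rose in both (log2 ratio 0.24, SE 0.068, adjusted p = 0.0148 in p53 KO cells and log2 ratio 0.48, SE 0.069, adjusted p = 2.6e-05 in WT cells), and so did DOHH, which completes the hypusine of eIF5A (log2 ratio 0.37, SE 0.10, adjusted p = 0.00765 in p53 KO cells and log2 ratio 0.47, SE 0.10, adjusted p = 0.00103 in WT cells). Neither of the 2 mitochondrial initiation factors was called in either genotype.

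Between genotypes the calls differed by list, beside backgrounds of 12.7% higher and 11.2% lower under GCN2iB and 9.63% higher and 12.1% lower under vehicle. Of the 6 amino acid response genes, 5 were higher and none lower in p53 KO cells under GCN2iB (median log2 ratio 0.56), and 2 higher and none lower under vehicle (median 0.20). DDIT3, a stress-induced transcription factor, was higher under GCN2iB (log2 ratio 0.84, SE 0.13, adjusted p = 4.84e-05) and under vehicle (log2 ratio 0.86, SE 0.12, adjusted p = 1.03e-05). Of the 25 other regulators, 2 were higher and 2 lower under GCN2iB, and none higher and 6 lower under vehicle. PDCD4 was lower in p53 KO cells under GCN2iB (log2 ratio -0.39, SE 0.065, adjusted p = 0.000112) and under vehicle (log2 ratio -0.36, SE 0.065, adjusted p = 0.000238). Of the 19 elongation and termination factors, 1 was higher and 3 lower under GCN2iB, and none higher and 7 lower under vehicle. EEF1A1, which brings aminoacyl-tRNA to the ribosome, was lower under GCN2iB (log2 ratio -0.24, SE 0.052, adjusted p = 0.00174) and under vehicle (log2 ratio -0.58, SE 0.052, adjusted p = 1.39e-08), and EEF2, the translocase, was lower under GCN2iB (log2 ratio -0.26, SE 0.061, adjusted p = 0.00324) and under vehicle (log2 ratio -0.38, SE 0.061, adjusted p = 6.77e-05). Of the 14 genes that act on eIF4E through mTORC1 or the MNK kinases, none was higher and 4 were lower under GCN2iB. Under vehicle none was higher and 3 were lower. The lowest log2 ratio in this list was -0.91 under GCN2iB and -0.38 under vehicle. MKNK2, a kinase of eIF4E, was lower under GCN2iB (log2 ratio -0.53, SE 0.074, adjusted p = 1.28e-05) and under vehicle (log2 ratio -0.35, SE 0.074, adjusted p = 0.00138). MTIF2, the mitochondrial initiation factor 2, was higher under GCN2iB (log2 ratio 0.34, SE 0.073, adjusted p = 0.0016).

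Start sites of the genes were examined because mRNAs that begin with a cytosine and a run of pyrimidines, the TOP motif, are known to be translated under control of mTORC1, and many encode parts of the translation machinery. RefSeq promoter windows (GRCh38.p14, 250 bases before to 50 after each start) were matched for 37 of the 44 genes. EIF2S2, EIF3A, EIF3E, EIF3G, EIF3H, EIF3L and EIF4EBP1 had no entry. A C at the start followed by at least 4 bases C or T on the strand of the gene was present in 9 of the 37 genes, EIF2A, EIF2D, EIF2S3, EIF3D, EIF3F, EIF3K, EIF3M, EIF4A2 and EIF4B, and in 5.14% of the 27305 genes with a window (4.07% of 35116 windows). The 30 bases around the start are shown for EIF4B, the gene with the most significant genotype difference, for EIF2D, the one gene higher in p53 KO cells under vehicle, and for the 4 eIF3 genes, all of which were called higher under GCN2iB in p53 KO cells. Capitals mark the tract, whose first base is the annotated start.
EIF4B (chr12:53006446-53006475, plus strand): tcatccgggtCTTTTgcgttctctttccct
EIF2D (chr1:206612446-206612475, minus strand): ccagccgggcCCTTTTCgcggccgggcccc
EIF3D (chr22:36529147-36529176, minus strand): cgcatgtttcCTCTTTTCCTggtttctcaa
EIF3F (chr11:7987327-7987356, plus strand): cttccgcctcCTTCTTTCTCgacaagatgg
EIF3K (chr19:38619178-38619207, plus strand): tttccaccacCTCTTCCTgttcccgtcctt
EIF3M (chr11:32583821-32583850, plus strand): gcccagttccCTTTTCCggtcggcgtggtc

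The tract is 5 bases in EIF4B, 7 in EIF2D and EIF3M, 8 in EIF3K and 10 in EIF3D and EIF3F. Backgrounds over all tested genes were 11.4% higher and 8.71% lower for GCN2iB in p53 KO cells and 11.6% and 13.6% in WT cells. For genotype under vehicle they were 9.63% and 12.1%. Under GCN2iB in p53 KO cells, 4 of the 9 genes with the tract were called higher and none lower, with a median log2 ratio of 0.14. Of the 28 genes without it, 13 were called higher and 1 lower, with a median of 0.16. In WT cells 1 of the 9 was called higher and 1 lower (median -0.031), and 11 of the 28 were called higher and 3 lower (median 0.098). Between genotypes under vehicle, 1 of the 9 was called higher and 2 lower, and none of the 28 was called higher and 4 lower. The values of genes with and without the tract overlapped in each of these comparisons.

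The letters CACGTG, an E-box bound by MYC and related factors, read the same on both strands and were present in 9 of the 37 genes and in 8.77% of all genes with a window. The 9 were EIF2B3, EIF3F, EIF3K, EIF4A3, EIF4B, EIF4E, EIF4G1, EIF4H and EIF5A2. EIF4E holds the letters at 2 places, shown here with the match in capitals because EIF4E was called both by treatment in p53 KO cells and by genotype under vehicle.
EIF4E, nearer site (chr4:98929188-98929217, minus strand): ggacatatccgtCACGTGgccagaagctgg
EIF4E, farther site (chr4:98929341-98929370, minus strand): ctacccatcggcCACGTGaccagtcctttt

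Under GCN2iB in p53 KO cells 6 of the 9 genes with CACGTG were called higher (median 0.24), as were 11 of the 28 without it (median 0.11), with 1 of the 28 lower. Over all tested genes 11.4% were called higher and 8.71% lower here, 11.6% and 13.6% in WT cells, and 9.63% and 12.1% between genotypes under vehicle. In WT cells 3 of the 9 were called higher and 1 lower, and 9 of the 28 higher and 3 lower. Between genotypes under vehicle, none of the 9 was called higher and 3 lower, with log2 ratios from -0.68 to -0.047 (median -0.14), and 1 of the 28 was called higher and 3 lower, with log2 ratios from -0.77 to 0.39 (median -0.040). The letters TGATGNAA, the core of sites bound by ATF4 with C/EBP partners, were present on either strand in EIF4E3 alone of the 37, and in 4.46% of all genes with a window. A match of letters describes the sequence and shows no binding.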

How the data were processed

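Paired-end RNA sequencing was done on 16 LNCaP samples. The file deposited by the authors gives unnormalized read counts for each gene. According to the submitters' processing notes, Trim Galore, HISAT2 and featureCounts were used with GRCh38, and DESeq2 is also named. Tool versions, the annotation release and the strandedness were not given in the sources used here, so reads of overlapping genes may be split. Column names gave group and replicate for all 16 libraries.

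Tests used edgeR 4.0.16 in R 4.3.3. Genes passed filterByExpr, totals were scaled by TMM, and all 16 libraries entered 1 robust quasi-likelihood model with a coefficient for each group. Tests were two-sided, with Benjamini-Hochberg adjustment over 18549 genes per contrast and a threshold of 0.05. Alternatives were DESeq2 1.42.0, limma 3.58.1 (voom), other scalings and filters, a replicate block and fits without single libraries. The test was first tried on simulated counts of independent libraries with the same spread setting for all genes. That trial does not show how the test performs on these libraries. CPM use TMM-scaled totals; SDs are over 4 libraries. Positions and exon lengths come from GENCODE release 29 (58261 of 62754 identifiers), symbols matched 42343 identifiers, and start-site windows come from RefSeq. Figures were drawn with matplotlib 3.10.9 in Python 3.11.15.

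The genes, lists and rules were chosen with earlier results of these data known. Named with full statistics were EIF4EBP1, EIF4EBP2, EIF4E, EIF2S1 and EIF2B5 in every comparison, called genes by smallest adjusted p (up to 12 in each direction), the 3 smallest p in the interaction, and up to 4 called genes per neighbouring list.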

Additional observations from a re-analysis of the deposited data

Results flagged for a closer look

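In each group of 4 libraries the gap between the most extreme library and its nearest neighbour was compared with the whole range of the group, over 176 gene and group pairs. Such a gap was past Dixon's 95% critical value in 13 of them, where chance alone flags about 1 in 20, or 8.8. Of the 13, 6 fell on replicate 1 of the p53 KO vehicle group. There EIF2S1 was high at 270.0 CPM (next library 238 CPM), as were EIF2S3 at 464 CPM (413 CPM) and EIF3J at 256 CPM (210.1 CPM), while EIF2B5 was low at 81.1 CPM (91.7 CPM), EIF3F at 178 CPM (197 CPM) and EIF4G1 at 1232 CPM (1353 CPM). Another 4 fell on replicate 4 of the p53 KO GCN2iB group, which also stood apart on the second principal component. In that library EIF3K was high at 212 CPM (169 CPM), EIF4A3 at 216 CPM (181 CPM) and EIF4EBP1 at 251 CPM (176 CPM), and EIF3L was low at 72.8 CPM (83.3 CPM). The remaining 3 were EIF2A, high at 119.5 CPM in WT vehicle replicate 1 (104 CPM), EIF4E2, low at 137 CPM in WT GCN2iB replicate 1 (163 CPM), and EIF5A, high at 561 CPM in p53 KO vehicle replicate 4 (513 CPM).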

How the results depend on the processing

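Over the alternatives for the 44 genes in 5 comparisons, 1864 results kept their direction and their side of the threshold, 41 gained a call, 40 lost one and 1 reversed: EIF4A1 in p53 KO against WT under GCN2iB, at 0.014 with shared reads summed. In fits without 1 library, 2015 kept both, 20 gained a call and 77 lost one. With library totals alone 12 of the 44 were called higher under GCN2iB in p53 KO cells, in place of 20, and the share of higher among all calls was 34.4% in place of 56.7%; it was 60.8% in place of 44.4% for genotype under vehicle. The single higher call for genotype under vehicle was 0 with DESeq2 size factors, with no count filter and in a fit of the 2 groups alone, and the 7 higher calls under GCN2iB were 4 in a fit of the 2 groups alone. Without 1 library, calls ranged over 19 to 22 (higher 17 to 20, lower 2 to 3) for GCN2iB in p53 KO cells, 15 to 21 (12 to 15, 3 to 7) in WT cells, 9 to 17 (4 to 7, 4 to 10) for genotype under GCN2iB, 6 to 10 (0 to 1, 6 to 10) under vehicle and 0 to 1 (0 to 0, 0 to 1) for the interaction, where EIF4A1 was called without WT GCN2iB replicate 1. Calls over all tested genes ranged in these fits as well. For GCN2iB in p53 KO cells, 1605 to 2086 were higher and 1193 to 1602 lower. In WT cells 1780 to 2306 were higher and 1668 to 2199 lower. For genotype under GCN2iB, 1495 to 2459 were higher and 1683 to 2398 lower. Under vehicle 1308 to 1809 were higher and 1832 to 2383 lower. The interaction over all genes called 1, and 1 to 34 without 1 library, 2 with DESeq2 size factors, 4 with library totals, 47 with no filter, 6 with a mean of at least 50 counts, 39 with DESeq2 and 6 without both replicate 4 GCN2iB libraries. The interaction compares all 4 groups, so limiting the fit to the groups compared leaves it unchanged. The cause of these shifts was not tested.

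The labels number replicates 1 to 4 in each group without saying that a number pairs libraries. Of 24 same-number pairs 5 correlated above 0.1, with a median of 0.037 beside -0.011 for other pairs, and 13 of 16 libraries correlated best with their own number, a hint from the data and not from the design. With a replicate block, genotype under vehicle gave 13 calls (12 lower), the interaction 2 (2 higher, EIF2A at adjusted p = 0.0479 and EIF3E at 0.0458) and 61 over all genes. Genotype under GCN2iB gave 19 (9 higher, 10 lower) in place of 14, adding EIF3M and EIF4G2 higher and EIF4E2, EIF4EBP1 (adjusted p = 0.0327) and EIF6 lower. GCN2iB gave 25 calls in each genotype, EIF4EBP2 in WT cells among them (adjusted p = 0.00562). Calls also rose over all 18549 genes. For GCN2iB 2864 were higher and 2437 lower in p53 KO cells (2119 and 1615 without the block). In WT cells 2849 were higher and 3290 lower (2153 and 2524 without it). For genotype 3015 were higher and 2760 lower under GCN2iB (2356 and 2085), and 2297 and 2906 under vehicle (1787 and 2238).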
